A study of Mus musculus with 12 samples.

Results

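The 9 genes of dopamine receptor and DARPP-32 signalling Ppp1r1b, Drd1, Drd2, Drd4, Drd5, Gnal, Adcy5, Pde10a and Rgs9, were followed through bulk RNA sequencing of mouse medial prefrontal cortex. They were found by matching symbols to gene IDs, which gave 9 of the 55401 IDs in the count table. All 9 passed the filter on low counts and were tested. Ppp1r1b was selected on its lower level with the receptor knockdown in these same libraries. The values that set the knockdown apart for this gene are therefore given as a description, with no p-value. It is still counted among members called under the processing alternatives, where nothing is read from its part.

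Dopamine acts on receptors of the D1 class, which couple to stimulatory G proteins and raise cyclic AMP, and of the D2 class, which couple to inhibitory G proteins and lower it. Cyclic AMP activates protein kinase A (PKA), which phosphorylates DARPP-32, the product of Ppp1r1b, and turns it into an inhibitor of protein phosphatase 1. In striatal projection neurons these proteins are very abundant. In prefrontal cortex DARPP-32 and the D1 receptor are best known from neurons of the deep layers, where dopamine bears on working memory and on learning about drugs.

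The samples were taken from male animals, 2 weeks into the extinction of a conditioned place preference, a test in which a chamber is first paired with a drug and the learned preference is then allowed to fade. Each of 3 groups had 4 libraries. One group carried an adeno-associated virus (AAV) with a scramble sequence and had saline (AAV-Scramble-Saline, replicates 2, 3, 4 and 5). Another carried the same scramble virus and had morphine (AAV-Scramble-Morphine, replicates 1, 3, 4 and 5). The last carried a virus against the serotonin receptor 5-HT6R, meant to lower its expression, and had morphine (AAV-5-HT6Rkd-Morphine, replicates 1, 2, 3 and 5). All animals thus carried a virus and went through extinction. No group combined the knockdown with saline, so the knockdown is seen only with morphine. The labels give no strain, age, promoter or serotype of the virus, and do not say which cells it reached. Nor do they say whether each library stands for an animal of its own. The p-values therefore rest on the spread from library to library, part of which could be technical.

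Total counts per library ran from 41483220 to 65739423. Levels are given as CPM, the counts set to a common library size after TMM scaling. Htr6, the gene of the targeted receptor, ran from 4.35 to 7.98 CPM with scramble and saline, 4.82 to 5.58 with scramble and morphine and 3.82 to 5.46 with the knockdown, and these ranges overlapped. The cortical markers Slc17a7 and Camk2a were abundant in all 12 libraries, at 1565 to 2007 and 2208 to 3217 CPM. On the first principal component of log2 CPM, which held 27.7% of the variance, 3 libraries lay apart with scores of 17.0 to 23.6: scramble saline replicate 4 and knockdown replicates 1 and 3. Knockdown replicate 2 lay between, at 6.20, and the other 8 libraries lay at -5.67 or below. The interferon-induced genes Isg15 and Ifit1 stood at 11.9 to 39.6 and 30.3 to 69.4 CPM in those 3 libraries, against 3.94 to 7.10 and 8.20 to 16.7 in the other 9. Members and lists are therefore also given without these 3 libraries, a choice made after seeing the data that leaves 2 knockdown libraries. Ribosomal RNA of the locus CT010467.1 made up 3.58 to 5.63% of counts with scramble and saline, 2.38 to 3.04% with scramble and morphine and 4.57 to 9.38% with the knockdown.

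DARPP-32 is switched by phosphorylation at threonine 34, the PKA site that makes it an inhibitor of protein phosphatase 1, and at threonine 75, the site of the kinase Cdk5 that makes it an inhibitor of PKA. The coding bases around both codons, from transcript Ppp1r1b-201 of GENCODE M21 (194 codons), are shown because they mark which transcripts carry the switch, with the threonine codon in capitals.
Codon 34: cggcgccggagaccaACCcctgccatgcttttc
Codon 75: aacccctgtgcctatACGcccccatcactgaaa
Transcripts Ppp1r1b-204 and Ppp1r1b-206 hold both stretches in their RNA, but their annotated reading frame is shorter, at 158 codons, and starts after the codon of threonine 34, while that of threonine 75 stays in frame. Transcripts Ppp1r1b-202 and Ppp1r1b-205 hold only the second stretch, and Ppp1r1b-203 and Ppp1r1b-207 neither. The deposited counts are per gene and do not separate these transcripts, so the values below are for their sum.

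Ppp1r1b (ENSMUSG00000061718, mm10 chr11:98348404-98357796, plus strand) stood lower in the knockdown libraries than in every scramble library. It measured 71.4, 77.9, 65.2 and 91.3 CPM with scramble and saline and 86.2, 70.7, 84.5 and 75.7 CPM with scramble and morphine. With the knockdown it measured 45.2, 54.3, 47.0 and 53.5 CPM. The highest knockdown library thus lay below the lowest scramble library of either kind, while the 2 scramble groups overlapped. Group means were 76.4 ± 11.2, 79.3 ± 7.35 and 50.0 ± 4.57 CPM (SD, n = 4). The log2 fold change was -0.66 (SE 0.10) for the knockdown against scramble with morphine, a fold of 0.631, and -0.61 (SE 0.10) against scramble with saline, a fold of 0.654. Both rest on the same 4 knockdown libraries on which the gene was chosen, so they are not separate results. Between the scramble groups the log2 fold change was 0.05 (SE 0.10), with a 95% interval of the fold from 0.895 to 1.20. Without the 3 libraries apart the values were -0.56 (SE 0.10) against scramble with morphine and -0.57 (SE 0.11) against scramble with saline. Knockdown replicate 5, which lay among the scramble libraries on the first component, had 53.5 CPM of Ppp1r1b. Exons of Ppp1r1b share 460 bases, 15.7% of their length, with the antisense gene 1700003D09Rik, which held 628 counts over all libraries against 2168 or more of Ppp1r1b in each.

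**Figure D1:**
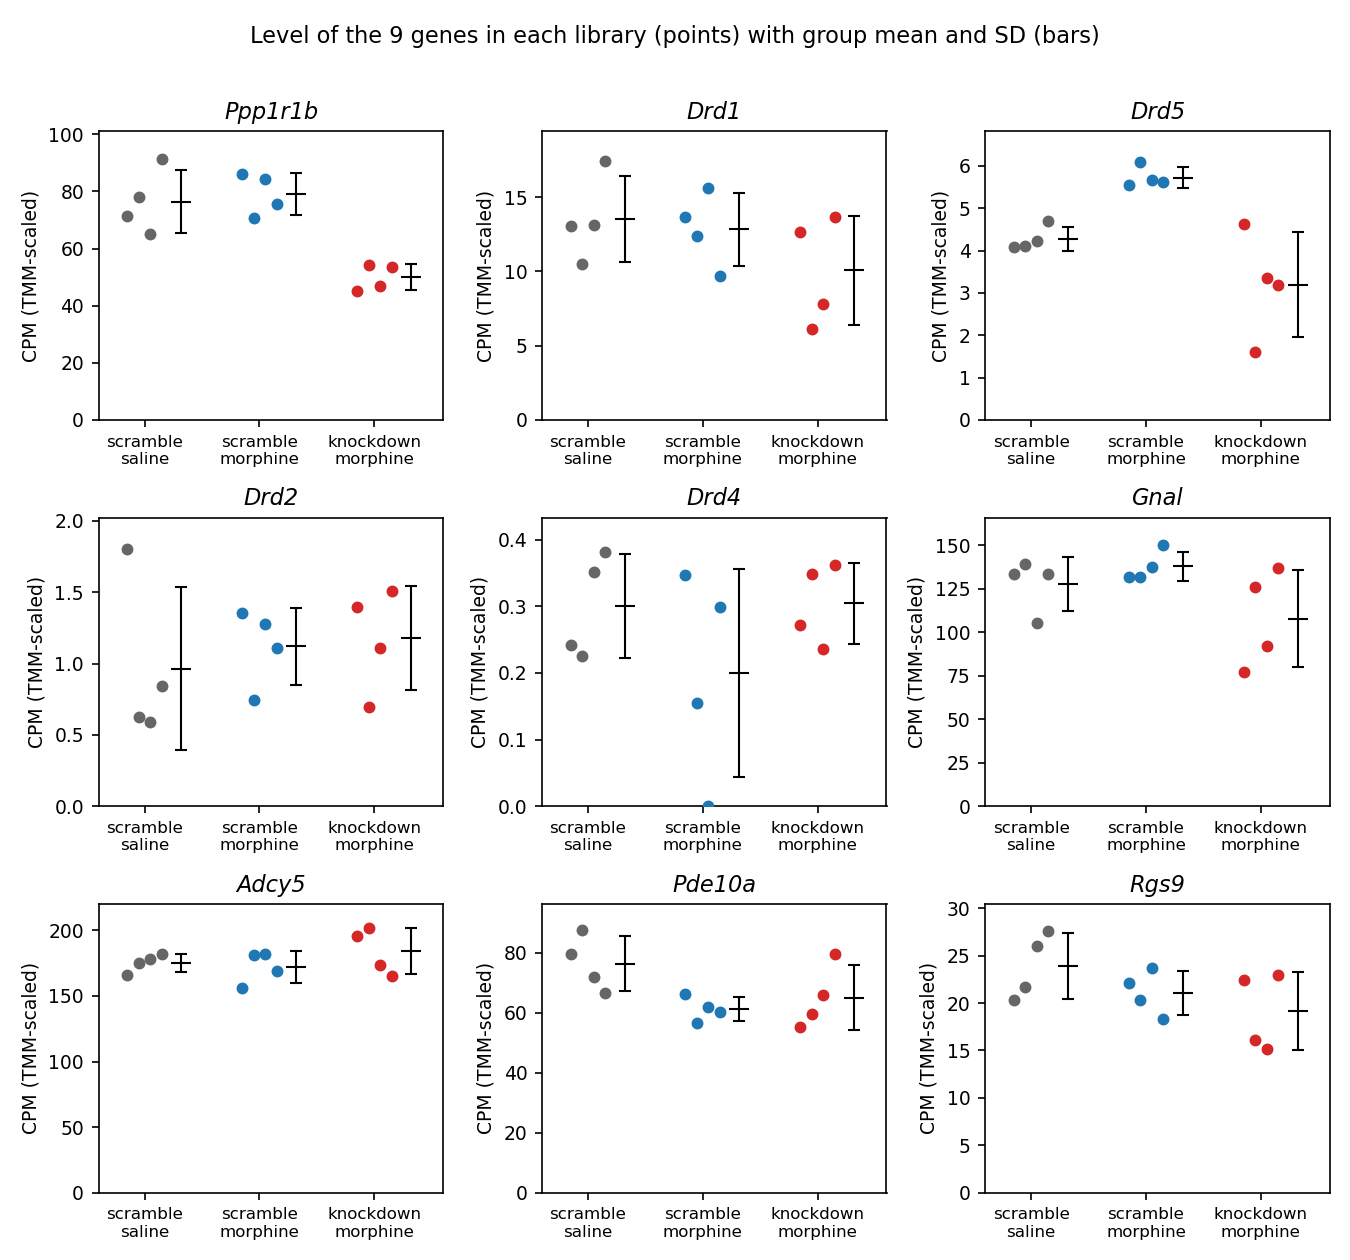
CPM of the 9 genes (vertical axes, starting at 0) in each of the 12 libraries (points), by group, with the group mean and SD (bars). The 4 knockdown libraries of Ppp1r1b sit between 45.2 and 54.3 CPM, below all 8 scramble libraries, and those of Drd5 lie below the scramble morphine libraries but not below all saline ones; Gnal, Drd1 and Rgs9 split within the knockdown group.

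Markers of deep-layer excitatory neurons also stood lower in the knockdown libraries. The 12 markers summed to 474 to 569 CPM with scramble and saline, 422 to 574 with scramble and morphine and 300 to 427 with the knockdown. The saline and knockdown ranges did not overlap, and knockdown replicates 1 and 5 reached just above the lowest scramble morphine library. Of the 12 markers, 10 had a log2 fold change below 0 against scramble with morphine (median -0.36, against 0.004 over all genes) and 11 against scramble with saline (median -0.43, against -0.002). None of them passed the test in either comparison. At an unadjusted edgeR p under 0.05, 5 of the 12 stood lower than with scramble and morphine, where 6.17% of all genes did. Against scramble with saline 8 of the 12 did, where 4.37% of all genes did. Rprm measured 48.2 to 68.6 CPM with scramble and morphine and 30.0 to 46.9 with the knockdown, a log2 fold change of -0.58 (SE 0.14, edgeR adjusted p = 0.254). Syt6, a synaptotagmin used as a marker of layer 6, went from 22.8 to 37.1 CPM to 13.8 to 25.9, a log2 fold change of -0.79 (SE 0.21, edgeR adjusted p = 0.271). Rprm and Syt6 were chosen after their values were seen. Ntsr1 and Ccn2, also among the 12, did not stand lower with the knockdown than with scramble and morphine. Ntsr1 ran from 6.05 to 11.2 CPM with scramble and morphine and from 6.42 to 12.8 with the knockdown. Ccn2 ran from 12.5 to 23.4 and from 14.2 to 33.5 CPM. With scramble and saline Ntsr1 ran from 10.2 to 14.0 CPM, and knockdown replicates 2, 3 and 5 lay below that range. The saline range of Ccn2, 17.4 to 21.2 CPM, lay within that of the knockdown. Without the 3 libraries apart, all 12 lay below 0 in both comparisons, with medians of -0.24 and -0.37. Upper-layer markers went the other way in count, with 6 of 8 above 0 against scramble with morphine (median 0.11).

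Markers on some other lists also lay mostly to one side of 0 in the same comparison, knockdown against scramble with morphine, and none passed. Other lists split: interneuron markers with 5 above 0 and 4 below, astrocyte markers with 3 and 5, choroid plexus and ependyma markers with 2 and 3. Of the general cortical excitatory markers 6 of 7 lay below 0 (median -0.15). Their sums were 4904 to 5315 CPM with scramble and morphine and 4262 to 5599 with the knockdown. Of the oligodendrocyte markers 8 of 8 lay below 0 (median -0.32), with sums of 1852 to 2538 CPM with scramble and morphine and 1199 to 2047 with the knockdown. Of the microglia markers 5 of 6 lay below 0 (median -0.24), with sums of 401 to 550 and 327 to 463 CPM. Endothelium markers lay above 0 in 6 of 6 (median 0.23), with sums of 194 to 231 and 221 to 300 CPM. Each of these pairs of ranges overlapped. With the 3 libraries apart left out, 5 of 7 cortical excitatory markers lay below 0 (median -0.16). The oligodendrocyte, microglia and endothelium medians were then -0.46, -0.26 and 0.13, with 8 of 8 and 6 of 6 below 0 and 5 of 6 above. The part of these markers in the member values was not tested.

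Set against the deep-layer sum, the Ppp1r1b ranges of the groups overlapped. It amounted to 13.3 to 16.4 CPM per 100 CPM of the 12 markers with scramble and saline, 14.3 to 17.9 with scramble and morphine and 10.6 to 15.7 with the knockdown. The means of this ratio were 14.8, 16.1 and 13.3 (SD 1.62, 1.84 and 2.22), lowest with the knockdown. In bulk tissue, fewer cells of a type and less RNA per cell cannot be told apart. Against the sum of striatal markers Ppp1r1b stood at 31.4 to 44.0, 31.8 to 39.9 and 18.8 to 23.9 CPM per 100. The knockdown range lay below both scramble ranges, which overlapped. This ratio holds the same Ppp1r1b values on which the gene was chosen, so it is not a separate result. The striatal markers themselves summed to 201 to 227, 216 to 236 and 200 to 250 CPM in the order saline, morphine, knockdown, and 10 of the 17 tested lay above 0 against scramble with morphine (median 0.08). The defining striatal transcription factor Isl1 was at 0 in all libraries but 1, Six3 reached at most 0.33 CPM, Adora2a ran from 1.85 to 4.53 CPM and Gpr6 from 0.23 to 2.48. Others on the list stood higher, such as Scn4b at 21.3 to 63.1 CPM, Rasd2 at 26.8 to 46.3 and Penk at 15.7 to 23.2. Foxo1 had all knockdown libraries above all scramble morphine libraries, at 25.9 to 44.4 against 21.2 to 24.8 CPM, as did 569 of all 21958 genes. Its saline range, 19.4 to 28.3 CPM, overlapped with the knockdown. The part of the deep-layer markers in the Ppp1r1b values was not tested.

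**Figure D2:**
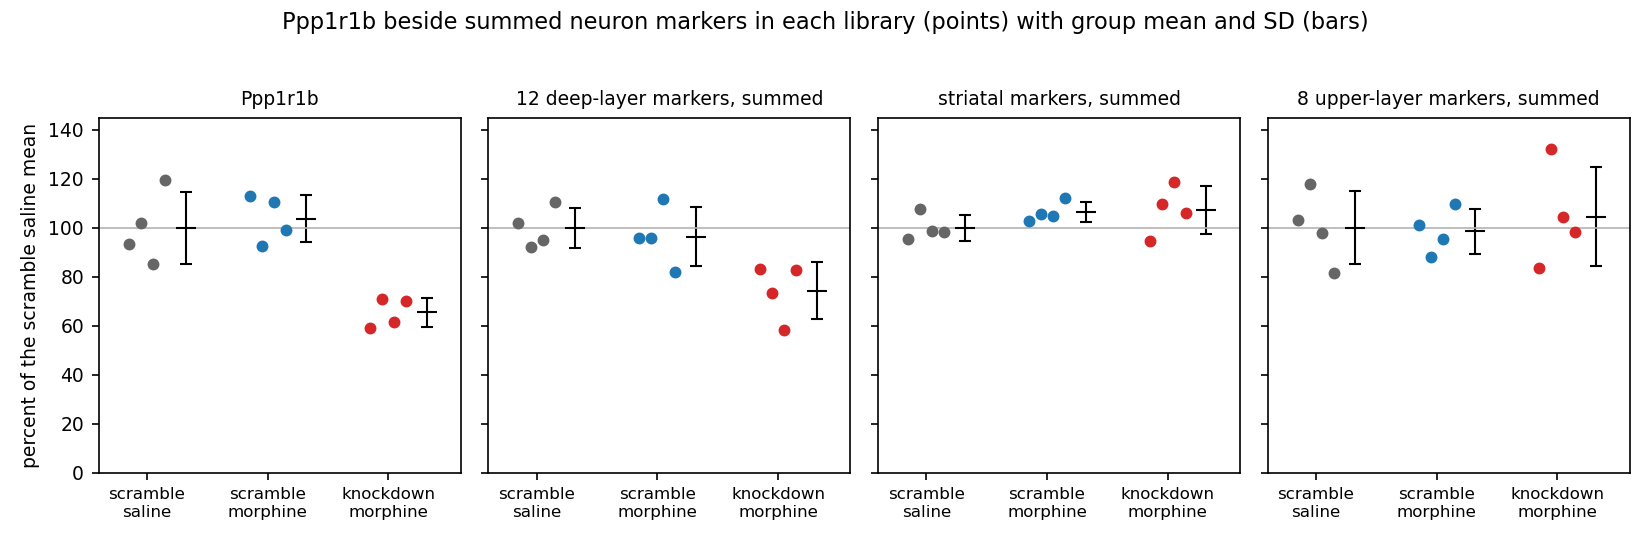
Ppp1r1b and the summed CPM of deep-layer, striatal and upper-layer neuron markers in each library (points), as percent of the scramble saline mean (vertical axis), with the group mean and SD (bars). Knockdown libraries sit at 59.2 to 71.1% for Ppp1r1b and 58.2 to 83.1% for the deep-layer sum, while the striatal sum sits at 94.7 to 119% and the upper-layer sum at 83.7 to 132%.

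The D1-class receptors are encoded by Drd1 (ENSMUSG00000021478, mm10 chr13:54051183-54055705, minus strand) and Drd5 (ENSMUSG00000039358, chr5:38319367-38322518, plus strand). The bases just before their annotated starts are shown for both receptors, as a description. They are from RefSeq (GRCm38.p6), and capitals mark matches to the GC box GGGCGG on either strand, a motif of the transcription factor family of Sp1.
Drd5, chr5:38319259-38319366, plus strand: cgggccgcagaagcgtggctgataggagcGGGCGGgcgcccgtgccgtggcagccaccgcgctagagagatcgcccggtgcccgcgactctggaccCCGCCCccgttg
Drd1, chr13:54055706-54055908, minus strand: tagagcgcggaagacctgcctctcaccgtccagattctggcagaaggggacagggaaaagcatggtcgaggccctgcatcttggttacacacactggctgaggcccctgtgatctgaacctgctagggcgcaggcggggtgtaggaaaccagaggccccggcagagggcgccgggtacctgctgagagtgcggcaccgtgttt
Drd5 holds 2 matches in this stretch of 108 bases and Drd1 none in its 203 bases. Promoter windows of 300 bases were used for 7 of the 9 genes, without Ppp1r1b and Gnal. Those of Drd1 each held 1 GC box, outside the bases shown. Every window of these 7 genes held a GC box, as did 35.7% of 32851 windows in the RefSeq table. None held TGACG, the core of the cyclic AMP response element (CRE) bound by CREB, on either strand, and so none held the full CRE TGACGTCA, whereas 20.8% and 1.79% of all windows did. A match is a description of letters in a window, not of a bound site. No link between matches and RNA levels was tested.

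Drd5 had the largest log2 fold change in size of the 9 genes between knockdown and scramble with morphine. It measured 4.09, 4.11, 4.22 and 4.69 CPM with scramble and saline, 5.54, 6.09, 5.66 and 5.61 with scramble and morphine and 4.63, 1.62, 3.34 and 3.19 with the knockdown. All scramble morphine libraries lay above all others, and the knockdown libraries spread within and below the saline range. Knockdown stood at a log2 fold change of -0.84 against scramble with morphine (SE 0.23, edgeR adjusted p = 0.264), a fold of 0.559 with a 95% interval of 0.400 to 0.783. It did not pass over all genes. Between the scramble groups it was 0.42 (SE 0.22, edgeR adjusted p = 0.999), and for knockdown against saline -0.42 (SE 0.23, edgeR adjusted p = 0.607). The knockdown value leaned on replicate 2: without that library the value against scramble with morphine became -0.62 (edgeR adjusted p = 0.178). Without the 3 libraries apart, where replicate 2 is 1 of the 2 knockdown libraries left, it was -1.24 (SE 0.25, edgeR adjusted p = 0.371). Of the exon bases of Drd5, 48.6% overlap the antisense gene Gm26560, which held 421 counts over all libraries, against 65 to 375 counts of Drd5 in a single library. Whether the counting used the strand is not given in the sources used here, so reads of the pair may not be fully separated.

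Drd1 did not separate the groups. It measured 13.1, 10.5, 13.1 and 17.4 CPM with scramble and saline, 13.7, 12.4, 15.6 and 9.72 with scramble and morphine and 12.7, 6.14, 7.80 and 13.7 with the knockdown. The knockdown group fell into a low pair, replicates 2 and 3, and a pair at the scramble level, replicates 1 and 5. That split is not the one of the first component, on which replicates 1 and 3 lay furthest out. The sum of the deep-layer markers was also lower in replicates 2 and 3, at 377 and 300 CPM, than in replicates 1 and 5, at 427 and 425. The part of these markers in the Drd1 values was not tested. Knockdown differed from scramble with morphine by -0.35 on the log2 scale (SE 0.24, edgeR adjusted p = 0.592), with a 95% interval of the fold from 0.551 to 1.12. It was -0.08 (SE 0.24, edgeR adjusted p = 0.999) between the scramble groups and -0.42 (SE 0.24, edgeR adjusted p = 0.626) for knockdown against saline. Per 100 CPM of deep-layer markers Drd1 stood at 2.21 to 3.06, 2.30 to 2.77 and 1.63 to 3.22 CPM, again overlapping.

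The D2-class receptors were rare in this tissue RNA. Drd2 (ENSMUSG00000032259, chr9:49340627-49408177, plus strand), also the autoreceptor of dopamine neurons, had 28 to 112 counts a library. It measured 1.80, 0.62, 0.59 and 0.84 CPM with scramble and saline, 1.35, 0.74, 1.28 and 1.11 with scramble and morphine and 1.40, 0.70, 1.11 and 1.51 with the knockdown. The ranges overlapped in every comparison. Knockdown differed from scramble with morphine by 0.08 on the log2 scale (SE 0.37, edgeR adjusted p = 0.960), a fold whose 95% limits were 0.610 and 1.83. Drd4 (ENSMUSG00000025496, chr7:141292006-141296464, plus strand) had 0 to 23 counts a library and at most 0.38 CPM. Its 0 came in scramble morphine replicate 4, where a count of 0 allows a level of up to 0.072 CPM (3 counts, counting error only). Its log2 fold changes were 0.56 (SE 0.70) for knockdown against scramble with morphine, -0.54 (SE 0.69) between the scramble groups and 0.02 (SE 0.69) for knockdown against saline, with intervals of the fold as wide as 0.529 to 4.13. Drd3, the remaining D2-class gene, was at 0 in 10 libraries and was not tested.

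Gnal (ENSMUSG00000024524, chr18:67088216-67226792, plus strand) encodes Golf, the stimulatory G protein subunit that couples D1 receptors to adenylyl cyclase in the striatum. It measured 133, 139, 105 and 134 CPM with scramble and saline, 132, 132, 138 and 150 with scramble and morphine and 76.9, 126, 92.1 and 137 with the knockdown. Its 3 lowest libraries were the 3 that lay apart on the first component, from both groups, at 76.9 to 105 CPM against 126 to 150 in the other 9. Knockdown differed from scramble with morphine by -0.35 on the log2 scale (SE 0.15, edgeR adjusted p = 0.388). Without those 3 libraries it was -0.07 (SE 0.07, edgeR adjusted p = 0.875), and the lower Gnal of the knockdown group was then not seen. Leaving out the libraries with the lowest Gnal shrinks this difference by itself, so nothing is read from that. Knockdown against saline gave -0.24 (SE 0.15, edgeR adjusted p = 0.666) and the scramble groups 0.11 (SE 0.15, edgeR adjusted p = 0.999). Exons of Gnal share 7.63% of their length with Mppe1 on the opposite strand.

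**Figure D3:**
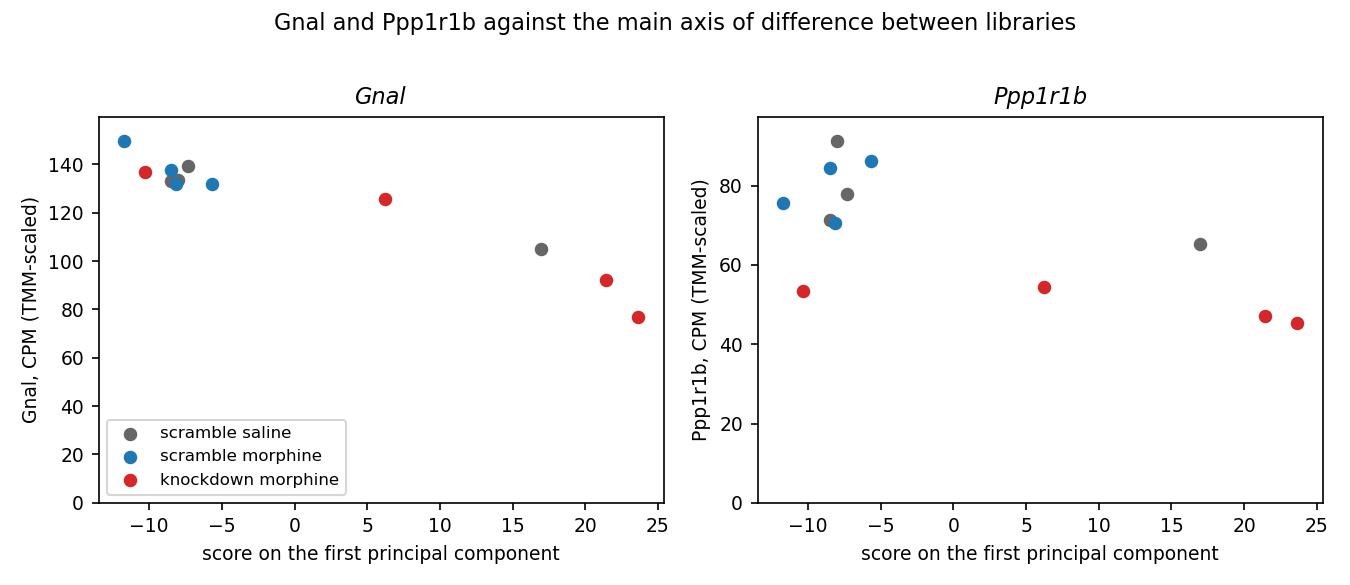
CPM of Gnal (left) and Ppp1r1b (right) on the vertical axes, starting at 0, against each library's score on the first principal component (horizontal axis, no unit), coloured by group. Gnal sits at 76.9 to 105 CPM in the 3 libraries with scores of 17.0 to 23.6 whatever their group, while Ppp1r1b is at 53.5 CPM in the knockdown library on the left and at 65.2 CPM in the saline library on the right.

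Adcy5 (ENSMUSG00000022840, chr16:35154877-35305738, plus strand), the main adenylyl cyclase of striatal neurons, kept much the same level throughout. It measured 166, 175, 178 and 182 CPM with scramble and saline, 156, 181, 182 and 169 with scramble and morphine and 196, 201, 173 and 165 with the knockdown. The ranges overlapped in all comparisons. On the log2 scale, knockdown differed from scramble with morphine by 0.10 (SE 0.07, edgeR adjusted p = 0.625), and the 95% interval of the fold was 0.961 to 1.19. The scramble groups differed by -0.03 (SE 0.07, edgeR adjusted p = 0.999) and knockdown against saline by 0.07 (SE 0.07, edgeR adjusted p = 0.813) on the log2 scale.

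Pde10a (ENSMUSG00000023868, chr17:8525372-8986648, plus strand), a phosphodiesterase that breaks down cyclic AMP and cyclic GMP, was, beside Drd5, the other member whose scramble groups did not overlap. It measured 79.4, 87.4, 71.9 and 66.6 CPM with scramble and saline and 66.1, 56.7, 61.7 and 60.1 with scramble and morphine. With the knockdown it measured 55.1, 59.5, 65.8 and 79.7 CPM. All scramble morphine libraries lay below all saline libraries, though the nearest pair was close, while the knockdown group spread over both. The 2 scramble groups differed by -0.32 on the log2 scale (SE 0.11, edgeR adjusted p = 0.999), a fold of 0.801 with a 95% interval of 0.685 to 0.938, and it did not pass over all genes. It was -0.35 (SE 0.11) without the 3 libraries apart, and did not pass there either. Knockdown against saline gave -0.23 (SE 0.11, edgeR adjusted p = 0.532) and knockdown against scramble with morphine 0.09 (SE 0.11, edgeR adjusted p = 0.788).

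Rgs9 (ENSMUSG00000020599, chr11:109225355-109298129, minus strand) encodes a regulator that speeds the return of inhibitory G proteins to rest, with one form abundant in striatum. Its upstream bases are shown because its level followed that of Drd1 (capitals as above).
Rgs9, chr11:109298182-109298431, minus strand: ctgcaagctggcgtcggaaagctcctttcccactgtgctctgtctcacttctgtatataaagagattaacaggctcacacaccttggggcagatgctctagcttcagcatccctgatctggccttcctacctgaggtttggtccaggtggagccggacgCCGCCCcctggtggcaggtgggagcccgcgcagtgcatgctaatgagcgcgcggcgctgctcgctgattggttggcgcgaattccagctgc
Rgs9 measured 20.3, 21.7, 26.1 and 27.6 CPM with scramble and saline, 22.1, 20.3, 23.7 and 18.3 with scramble and morphine and 22.5, 16.1, 15.2 and 22.9 with the knockdown. The low knockdown libraries were replicates 2 and 3, as for Drd1, and the ranges overlapped in all comparisons. Its log2 values were -0.14 (SE 0.14, edgeR adjusted p = 0.748) for knockdown against scramble with morphine, -0.18 (SE 0.14, edgeR adjusted p = 0.999) between the scramble groups and -0.32 (SE 0.14, edgeR adjusted p = 0.520) for knockdown against saline.

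Ppp1r1b aside, 0 of the other 8 genes passed in any comparison at a Benjamini-Hochberg adjusted p under 0.05 by the edgeR quasi-likelihood test. DESeq2 called 1 of these 8 genes, Drd5, for knockdown against scramble with morphine (adjusted p = 0.048) and 0 in the other comparisons. For that comparison Drd5 did not pass in edgeR with the replicate block (edgeR adjusted p = 0.118). Nor did it with the share of CT010467.1 as a covariate (edgeR adjusted p = 0.941). The edgeR rule called 0% of all 21958 genes for knockdown against scramble with morphine, 0% between the scramble groups and 0.0137% for knockdown against saline. For knockdown against scramble with morphine, 2 of the 8 stood lower at an unadjusted p under 0.05 (Drd5 and Gnal), where 6.17% of all genes did. Drd5 was the 1 with all knockdown libraries below all scramble morphine libraries, where 3.26% of genes were. Between the scramble groups, Pde10a was the 1 that stood lower at that unadjusted p, against 1.82% of all genes, and the 1 with all morphine libraries below all saline ones, against 1.77%. Drd5 was the 1 with all of them above, against 1.55%. For knockdown against saline, 2 of the 8 stood lower at that p (Pde10a and Rgs9), against 4.37%, and 0 lay wholly below, against 2.16%. The median log2 fold changes of the 9 were -0.14, -0.03 and -0.24 in this order, beside 0.004, -0.001 and -0.002 over all genes. These medians include Ppp1r1b, which was chosen on its knockdown values. Nothing is therefore read from the medians of the comparisons that hold the knockdown. Without the 3 libraries apart, 0 of the 8 passed in each comparison, and for knockdown against scramble with morphine Drd1 stood at -0.36 (SE 0.32), Rgs9 at -0.11 (SE 0.16) and Adcy5 at 0.09 (SE 0.09). Any pair of these comparisons has 1 group of libraries in common.

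**Figure D4:**
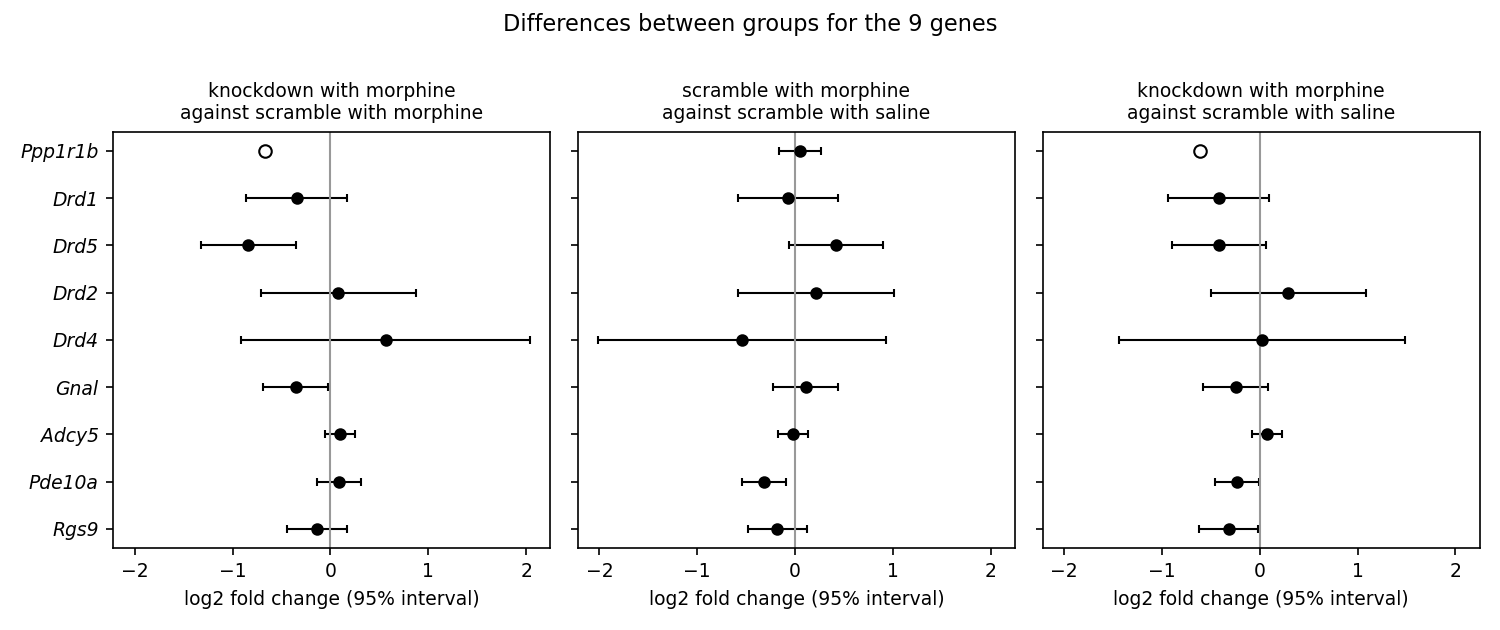
Log2 fold change (horizontal axis) of the 9 genes in the 3 comparisons, with 95% intervals (bars). Open circles mark Ppp1r1b where the comparison holds the knockdown libraries on which it was chosen, drawn without an interval; Drd5 lies at -0.84 in the left panel and 0.42 in the middle one, and Pde10a at -0.32 in the middle one.

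Per kilobase of exon, which allows levels of different genes to be set side by side, Ppp1r1b and Adcy5 led. In CPM per kb, the scramble saline means were 26.1 ± 3.81 for Ppp1r1b and 24.4 for Adcy5, followed by Gnal at 11.4, Pde10a at 5.94, Rgs9 at 3.74 and Drd1 at 3.73. The other receptors stood at 1.36 for Drd5, 0.38 for Drd2 and 0.09 for Drd4. Ppp1r1b and Adcy5 overlapped in both scramble groups, and so did Drd1 and Rgs9 in all 3 groups. With the knockdown Ppp1r1b stood at 15.5 to 18.6 CPM per kb, below Adcy5 at 23.0 to 28.0.

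The wider pathway was read from 7 lists, and 0 of their genes passed over all genes in any comparison. Of 17 other G protein subunits and adenylyl cyclases, 9 lay above 0 and 8 below for knockdown against scramble with morphine (median 0.01). Gng7, the gamma subunit that pairs with Golf in striatum, had the smallest unadjusted p of this list. It measured 64.4 to 70.2 CPM with scramble and morphine and 71.5 to 95.0 with the knockdown, without overlap, a log2 fold change of 0.36 (SE 0.09, edgeR adjusted p = 0.259). Knockdown replicate 5, at 71.5 CPM, lay within the saline range of 61.0 to 76.0. The inhibitory subunits Gnai3 and Gnai2 had values of opposite sign, -0.30 (SE 0.10) and 0.41 (SE 0.14), with edgeR adjusted p of 0.320 and 0.327. The 3 highest libraries of Gnai2, at 207 to 258 CPM, were the 3 apart on the first component, knockdown replicate 2 was next at 203, and knockdown replicate 5 was at 151, within the scramble range. Gnai3 was lowest in those 3 and in knockdown replicate 2, at 26.7 to 35.6 CPM.

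PKA itself lay mostly below 0 with the knockdown, 4 of 6 subunits, with a median of -0.08. The catalytic subunit Prkacb measured 519 to 547 CPM with scramble and morphine and 306 to 517 with the knockdown, a log2 fold change of -0.38 (SE 0.15, edgeR adjusted p = 0.355). As for Gnal, its 3 lowest libraries were the 3 apart on the first component, scramble saline replicate 4 among them at 375 CPM. The regulatory subunit Prkar2b differed less, at -0.16 (SE 0.07, edgeR adjusted p = 0.362), with all knockdown libraries below all scramble morphine libraries.

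Among 16 kinases and phosphatases that act on DARPP-32 or are its target, 11 lay below 0 (median -0.05). Cdk5r1, the activator of Cdk5, had -0.18 (SE 0.07, edgeR adjusted p = 0.358). Other phosphoproteins of this kind had 4 of 5 tested below 0 (median -0.22): Ppp1r2, inhibitor 2 of protein phosphatase 1, at -0.22 (SE 0.06, edgeR adjusted p = 0.271), and Ppp1r1a, inhibitor 1 and the closest relative of DARPP-32, at -0.28 (SE 0.11, edgeR adjusted p = 0.355). The knockdown range of Ppp1r2, 87.3 to 101 CPM, lay below the 106 to 113 CPM of scramble with morphine, while that of Ppp1r1a, 31.6 to 45.2, overlapped with 41.3 to 48.7.

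The phosphodiesterases and the RGS list lay more often above 0 with the knockdown, 10 of 14 (median 0.12) and 10 of 16 (median 0.10). Arrb1, beta-arrestin 1, which ends receptor signalling, stood at 364 to 373 CPM with scramble and morphine and 403 to 431 with the knockdown, a log2 fold change of 0.17 (SE 0.05, edgeR adjusted p = 0.275). Of the genes that make, carry and break down dopamine, 5 of 6 tested lay below 0 (median -0.20). Th, the rate-limiting enzyme of dopamine synthesis, was at 1.27 to 3.17 CPM, and the dopamine transporter gene Slc6a3 at 0.27 CPM or less. Without the 3 libraries apart, 3 of the 6 phosphoproteins then tested lay above 0 and 3 below, with a median of 0.02. The median of the kinases and phosphatases was then -0.004 (10 of 16 below 0), that of the PKA subunits -0.06 (5 of 6 below) and that of the G protein list 0.008 (9 of 17 above). The phosphodiesterases then had 12 of 14 above 0 (median 0.06) and the RGS list 14 of 16 (median 0.10), while the dopamine synthesis list had 7 of 7 below 0 (median -0.29).

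Between the scramble groups the largest of these medians in size was -0.08, of the phosphodiesterases, with 11 of 14 below 0. Pde4d and Pde4b each had -0.17 (SE 0.08 and 0.07, edgeR adjusted p = 0.999), and Maob, a dopamine-degrading oxidase, had 0.26 (SE 0.12, edgeR adjusted p = 0.999).

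Among all 36 pairs of the 9 genes, 1 had a Pearson correlation across the 12 libraries with an adjusted p under 0.05. Drd1 and Rgs9 had r = 0.892 (permutation p = 0.0002, adjusted 0.0061) and Spearman's rho = 0.895 (adjusted permutation p = 0.0054). Without the 2 libraries farthest out, knockdown replicates 2 and 3, r was 0.772, and with group means removed it was 0.884. The next, Ppp1r1b with Gnal, had r = 0.735 (rho = 0.608), 0.605 with group means removed and 0.302 without knockdown replicates 1 and 3. It holds the knockdown values on which Ppp1r1b was chosen, so no p-value is given. For Drd1 with Drd5, r was 0.689 (adjusted permutation p = 0.219, rho = 0.322) and -0.05 without knockdown replicates 2 and 3, so it rests on those libraries. The libraries of a pair share depth and tissue makeup.

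The genes most like Ppp1r1b and Drd1 in pattern were sought by Pearson correlation of log2 CPM over the 12 libraries among 11724 genes. For Ppp1r1b the first were Crtac1 (r = 0.957, and 0.889 with group means removed), Lrrc55 (0.930 and 0.838), Trim35 (0.927 and 0.657), Letm1 (0.918 and 0.557) and C1qbp (0.915 and 0.559). Crtac1, a secreted matrix protein, measured 35.8 to 44.0 CPM with scramble and saline, 39.8 to 42.9 with scramble and morphine and 29.7 to 36.2 with the knockdown. For Drd1 they were Rnf152 (0.950 and 0.940), Mcm6 (0.932 and 0.942), Sec24d (0.920 and 0.931), Sema5a (0.919 and 0.897) and Slc8a3 (0.911 and 0.914). The 2 lists share no gene. These correlations are the highest of many and are a description.

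**Figure D5:**
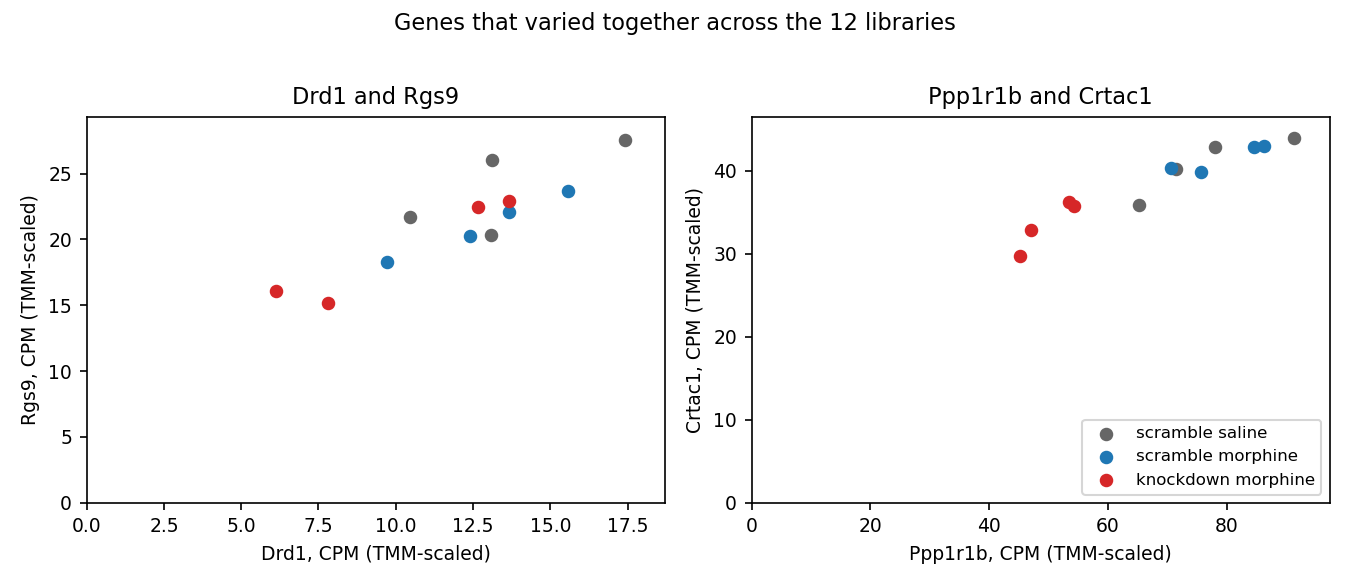
CPM of Rgs9 against Drd1 (left) and of Crtac1 against Ppp1r1b (right), axes starting at 0, 1 point a library, coloured by group. Knockdown replicates 2 and 3 sit lowest on both axes at left (6.14 and 7.80 CPM of Drd1), and all 4 knockdown libraries sit left of the scramble libraries at right.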

How the data were processed

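Bulk RNA of 12 mouse libraries was analysed. The authors deposited whole-number counts per gene, unnormalized. Per the labels' protocols, RNA was selected with oligo(dT) beads and the kit marked the strand with dUTP. Per the submitters' processing notes, reads were handled with HISAT2 2.0.4, cutadapt 1.9 and StringTie 1.3.4d on mm10, and edgeR and DESeq2 were used, with no role stated. Which tool counted, and whether by strand, is not given in the sources used here.

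Of 55401 gene IDs, 55141 matched a symbol in GENCODE M21. Counts were tested with edgeR 4.0.16 (R 4.3.3): filterByExpr with a minimum count of 10 left 21958 genes, TMM set the library sizes, and 1 robust quasi-likelihood fit took all 12 libraries with a mean for each group (9 residual degrees of freedom). The biological coefficient of variation was 23.2%. Tests were two-sided, with Benjamini-Hochberg adjustment over all tested genes at 0.05. Steps were tested on simulated data.

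The members, lists and alternatives were chosen with earlier results of these data known. All members were named, and of each pathway list those that passed, otherwise up to 3 with the smallest p. Of the markers, the 2 most abundant cortical ones were named. Also named were the 5 genes most like Ppp1r1b and Drd1 (log2 CPM with a prior count of 2, genes of at least 5 CPM). Rprm, Syt6, Ntsr1, Ccn2, Isl1, Six3, Adora2a, Gpr6, Scn4b, Rasd2, Penk, Foxo1, Drd3, Th, Slc6a3, Isg15 and Ifit1 were added after their values were seen. Pair correlations used log2(CPM + 0.1) and 100000 permutations. Alternatives were DESeq2 1.42.0, limma 3.58.1 voom with sample weights, other scalings and filters, a replicate block, the compared groups alone, the share of CT010467.1 as a covariate, each library left out, and, chosen after seeing the data, the libraries apart on the first component left out. One gene of the dopamine synthesis, transport and breakdown list is not reported here.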

Additional observations from a re-analysis of the deposited data

How the results depend on the processing

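With 23 alternatives and 618 values of the 27 member fold changes, 587 kept their sign and 31 changed it, and 13 of the 27 never changed sign. For Ppp1r1b against either scramble group the sign could not change with a library left out, since the groups on which it was chosen do not overlap. The counts of members called include Ppp1r1b, and nothing is read from its part in them. They were 2 and 1 with DESeq2 for knockdown against scramble with morphine and against saline, 1 and 1 with no filter on low counts, and 0 to 1 in both with each library left out. Drd5 in DESeq2 (adjusted p = 0.048) was the 1 call in them that was not Ppp1r1b. Between the scramble groups the count was 0 under every alternative run.

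Over all genes, the edgeR counts of 0, 0 and 3 (knockdown against scramble with morphine, scramble groups, knockdown against saline) became 158, 6 and 147 with DESeq2. No filter gave 2 and 5 for the comparisons with the knockdown, and the compared groups alone 1 between the scramble groups and 5 for knockdown against saline. For knockdown against saline, library totals, voom and the ribosomal RNA covariate each gave 0. Leaving out each library gave 0 to 375 for knockdown against scramble with morphine and 0 to 55 for knockdown against saline, both highest without knockdown replicate 5. Without the 3 libraries apart the counts were 4 and 0 for these comparisons, and without knockdown replicate 2 as well, which leaves 1 knockdown library assumed to vary like the others, 190, 4 and 151. The cause of these shifts was not tested.

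Same-numbered libraries did not deviate together (2 of 9 pairs with r over 0.1, range -0.02 to 0.13), so the numbers are not taken to pair samples. With the replicate block the counts were 2, 1 and 0 over all genes and 0 among members.

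The 31 sign changes fell in these log2 fold changes. Drd4 for knockdown against saline became -0.025 with library totals, -0.35 with the block and -0.093 to 0.16 with libraries left out. Drd2 for knockdown against scramble with morphine became -0.0050 with the block, -0.026 with the covariate, -0.0087 without the 3 libraries and -0.072 to 0.26 with libraries left out. With the covariate, Adcy5 stood at -0.082, 0.061 and -0.021 in the 3 comparisons, and Drd1 and Gnal between the scramble groups at 0.080 and -0.028. With libraries left out, the scramble groups differed by -0.055 to 0.015 for Adcy5, -0.18 to 0.072 for Drd1 and -0.020 to 0.15 for Ppp1r1b, and Pde10a for knockdown against scramble with morphine ran from -0.030 to 0.16. Ppp1r1b between the scramble groups was -0.017 without the 3 and -0.016 without the 4 libraries. Without the 4, knockdown against scramble with morphine gave 0.092 for Drd1, -0.059 for Adcy5 and 0.12 for Rgs9, and knockdown against saline gave 0.0022 for Drd1, 0.013 for Gnal, -0.075 for Adcy5 and 0.033 for Pde10a. Drd4 could not be fitted with a minimum mean of 1 CPM. Counts were lowest for Drd4 and Drd2, at 0 to 23 and 28 to 112 a library, which limits the precision of Drd4 most.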
